A study of Homo sapiens with 24 samples.

Results

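The genes of lysosomes and autophagy were followed in 12 RNA-seq libraries of A549, an established human lung adenocarcinoma cell line that lacks functional STK11 (LKB1). They are 47 genes chosen by name from 58302 in the deposited table. The list holds 15 genes of the vacuolar H+-ATPase (V-ATPase), 12 lysosomal hydrolases and lumenal cofactors, 5 lysosomal membrane proteins, 12 genes of the autophagy machinery, and TFEB, TFE3 and MITF. Each of the 47 had a mean of at least 1 FPKM (fragments scaled to transcript length and library size) over the 12 libraries. They were therefore all among the 12607 genes tested.

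All cells had received a lentivirus. One population carried a blank vector, and the other a vector for GPD1, the cytosolic glycerol-3-phosphate dehydrogenase, which oxidises NADH while it makes glycerol 3-phosphate. Each population was grown without metformin or in medium with 10 mM metformin, a biguanide that inhibits respiratory complex I, with 3 libraries for each of the 4 groups. The sources used here do not give the promoter of the transgene, the time in metformin, or whether each population is a clone or a pool. Separate cultures for the 3 replicates are not stated by the labels either. The p-values therefore measure only library-to-library spread, which could be technical.

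Lysosomes degrade what endocytosis and autophagy bring to them. The V-ATPase acidifies them, with a V1 sector that hydrolyses ATP and a V0 sector that carries protons through the membrane, and acid hydrolases such as the cathepsins work at that pH. Autophagy wraps cytoplasm in a membrane to which ubiquitin-like proteins of the LC3 and GABARAP families are attached, with receptors such as SQSTM1 (p62) bringing cargo. TFEB, TFE3 and MITF are basic helix-loop-helix factors that bind E-box sequences near the start of many of these genes. The kinase complex mTORC1, at the lysosome's surface, keeps TFEB and TFE3 in the cytosol, so their activity is not read from their RNA.

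GPD1 followed the labels, with 0.025 to 0.103 FPKM in the 6 vector libraries and 13.3 to 16.8 FPKM in the 6 GPD1 libraries. The smallest FPKM steps gave 13.3 to 18.0 M reads a library, so 1 read on a 1 kb gene was worth 0.0556 to 0.0751 FPKM. Simple-epithelial keratins KRT7, KRT8 and KRT18 were high in every library, while KRT19 stayed at or below 0.09 FPKM and 5 alveolar type 2 markers summed to at most 0.295 FPKM. The other 2 epithelial markers were lower: CDH1 (E-cadherin) stood at 9.26 ± 0.0251 FPKM in untreated vector cells, 2.56 ± 0.344 with metformin, 4.18 ± 0.719 in GPD1 cells and 3.25 ± 0.359 in GPD1 cells with metformin, and EPCAM at 0.240 to 1.57 FPKM. The part of the CDH1 difference in the results was not tested. The 4 kidney-lineage markers summed to 2.34 to 4.5 FPKM. Metformin libraries had fewer genes above 0 (23472 to 25099) than untreated libraries (25471 to 26739). The median log2 fold change of all genes with metformin was -0.10 in vector cells and -0.20 in GPD1 cells. Library factors from median ratios moved these to 0.10 and 0.07, upper-quartile factors to 0.11 and 0.17, and totals without mitochondrial genes to -0.18 and -0.26, so directions are given with the scalings under which they flip. These are bulk libraries, in which fewer cells of a type and less RNA per cell cannot be told apart.

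The promoters show which of these genes carry the E-box that TFEB-family factors bind. RefSeq promoters (GRCh38.p14, 250 bases before to 50 after each start) were matched for 37 of the 47 genes. The palindrome TCACGTGA, read on both strands, stood in a promoter of 6 of the 37 (16.2%), against 1.18% of 27305 genes in the same table. The holders were ATP6V0D1 and ATP6V1G1 of the V-ATPase, the enzymes GAA and CTSA, and the membrane proteins LAMP1 and MCOLN1. Its inner CACGTG, which every TCACGTGA also contains, stood in 10 of the 37 (27.0%), against 8.77% of all genes. Neither sequence occurred in the matched promoters of the 11 autophagy genes or the 3 TFEB-family genes. A match is a description of these letters and not of binding.

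The 3 TCACGTGA promoters shown are those of the genes whose values are given library by library below, and capitals mark the palindrome. CTSA has 1 copy, 26 bases before the start. GAA has 2, at 77 and 32 bases before it, and LAMP1 has 2, at 29 and 2 bases before it. The fourth promoter, of GABARAPL1, was chosen after its values were seen and holds in capitals the CRE palindrome TGACGTCA, 30 bases before the start. That palindrome stood in 2 of the 37 genes (5.41%, GABARAPL1 and MITF) and in 2.25% of all genes. In order, the promoters lie at chr20:45891085-45891384, chr17:80101331-80101630, chr13:113296989-113297288 and chr12:10212627-10212926, each on the plus strand.
CTSA: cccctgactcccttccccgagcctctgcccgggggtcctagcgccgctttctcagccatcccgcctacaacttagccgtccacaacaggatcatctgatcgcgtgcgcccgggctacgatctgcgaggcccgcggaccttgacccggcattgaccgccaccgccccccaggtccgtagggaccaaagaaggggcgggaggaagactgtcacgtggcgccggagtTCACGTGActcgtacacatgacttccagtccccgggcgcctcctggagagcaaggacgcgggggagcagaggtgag
GAA: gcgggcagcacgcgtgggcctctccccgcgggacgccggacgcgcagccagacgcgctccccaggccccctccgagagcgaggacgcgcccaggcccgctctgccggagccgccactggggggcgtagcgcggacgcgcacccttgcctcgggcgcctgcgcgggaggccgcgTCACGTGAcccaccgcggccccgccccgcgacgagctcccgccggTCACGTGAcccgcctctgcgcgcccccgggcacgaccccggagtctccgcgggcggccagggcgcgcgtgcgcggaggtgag
LAMP1: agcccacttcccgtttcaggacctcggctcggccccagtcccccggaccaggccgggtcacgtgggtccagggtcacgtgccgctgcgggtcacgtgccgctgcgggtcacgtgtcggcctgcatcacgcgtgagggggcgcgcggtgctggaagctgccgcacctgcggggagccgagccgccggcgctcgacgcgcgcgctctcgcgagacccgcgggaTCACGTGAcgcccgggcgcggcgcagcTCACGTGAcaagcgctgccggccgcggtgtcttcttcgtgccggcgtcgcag
GABARAPL1: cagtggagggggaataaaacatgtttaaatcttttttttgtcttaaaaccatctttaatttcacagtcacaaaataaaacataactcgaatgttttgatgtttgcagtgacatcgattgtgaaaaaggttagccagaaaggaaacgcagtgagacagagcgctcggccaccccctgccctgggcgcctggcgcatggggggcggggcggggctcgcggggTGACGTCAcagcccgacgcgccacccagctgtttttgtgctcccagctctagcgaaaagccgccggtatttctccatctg

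On GRCh38, the genes on which the comparisons below turn most lie at chrX:49028726-49043486 (TFE3), chr13:113297241-113323672 (LAMP1), chr20:45890144-45898820 (CTSA), chr12:10212458-10223130 (GABARAPL1) and chr17:68420948-68457513 (WIPI1), each a protein-coding gene in GENCODE 29.

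The levels of the 47 genes in untreated vector cells spanned from 0.904 ± 0.143 FPKM (mean ± SD, n = 3 here and below) for ATP6AP2, an accessory V-ATPase subunit, to 202 ± 2.54 FPKM for PSAP. PSAP encodes prosaposin, the precursor of the saposins that help hydrolases reach glycolipids. CTSZ (48.3 ± 0.979 FPKM), SQSTM1 (48.3 ± 4.77), ATP6V1G1 (46.7 ± 1.84), CD63 (42.2 ± 0.214) and ATP6V1F (40.0 ± 2.20) followed PSAP. Among these 5 the libraries of SQSTM1 overlapped those of CTSZ and ATP6V1G1, and those of CD63 overlapped those of ATP6V1F and lay below all of the other 3 genes. Summed FPKM rose from 378.9 ± 7.56 to 628.3 ± 21.6 with metformin in vector cells for the 12 hydrolases and cofactors, of which PSAP made up 53.4% and 60.5%. In GPD1 cells the same sum went from 350.8 ± 2.24 to 584.4 ± 17.6. The sum of the V-ATPase genes went from 196.8 ± 13.6 to 242.9 ± 6.07 in vector cells and from 196.7 ± 11.4 to 257.0 ± 5.36 in GPD1 cells. In both populations and for both sums the metformin libraries lay above the untreated ones without overlap.

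**Figure D1:**
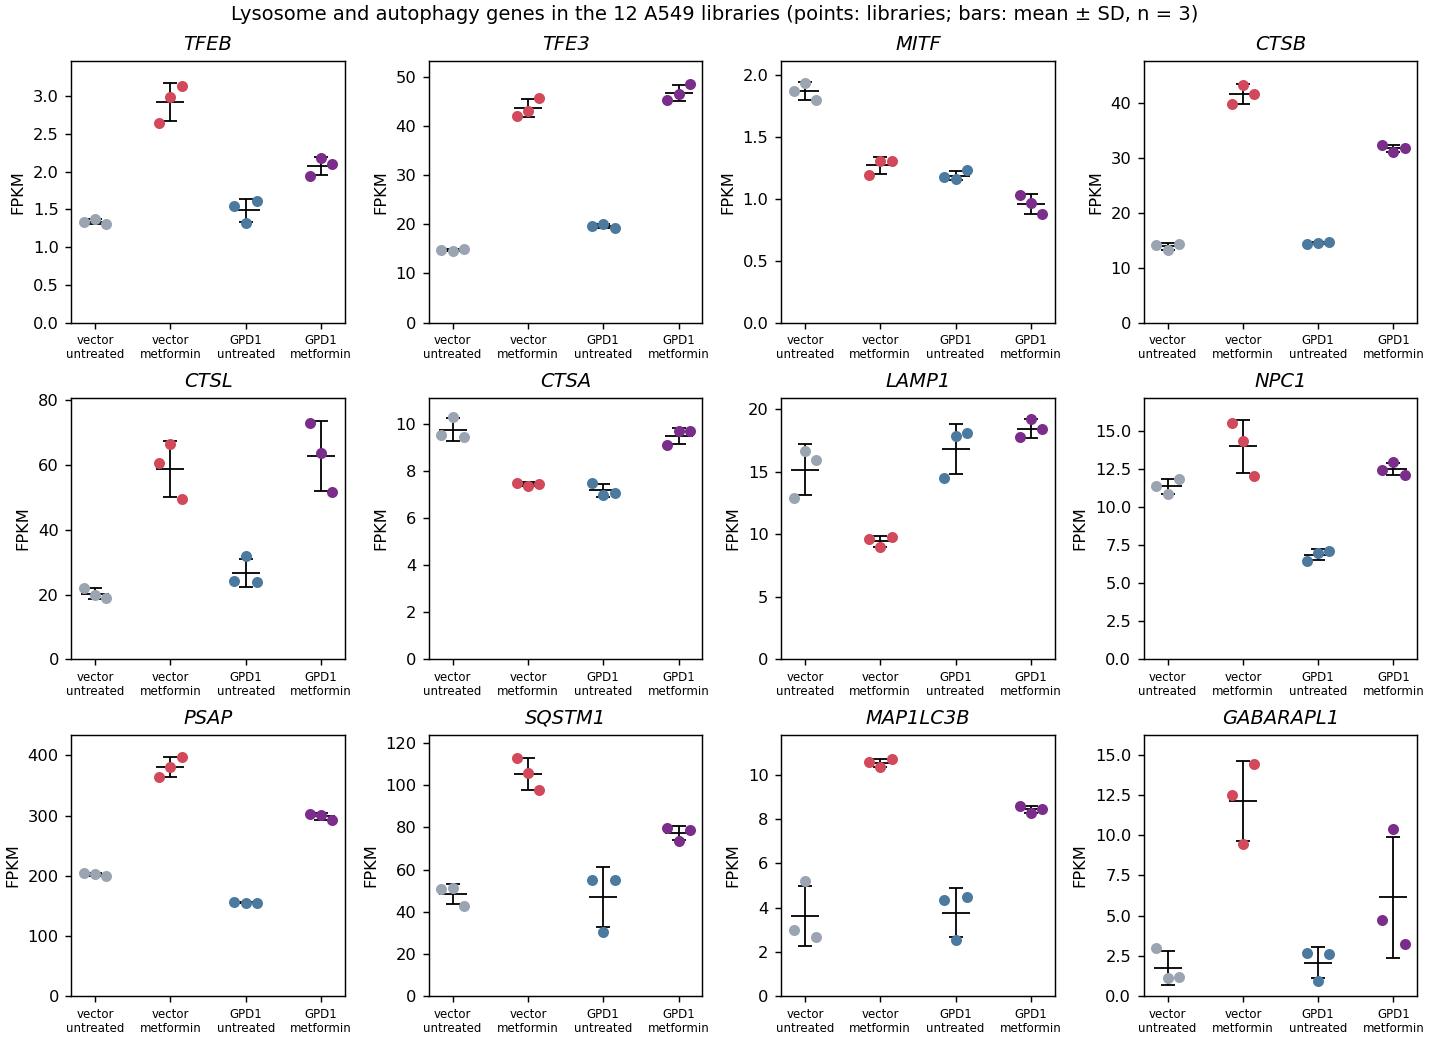
FPKM of selected members (vertical axes, from 0) in each of the 12 libraries by group (horizontal axes), with points for libraries and bars for the mean and SD of 3. TFE3, CTSB and MAP1LC3B stand higher in both metformin groups, while every LAMP1 library of metformin vector cells lies below the other groups.

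In vector cells 24 of the 47 genes rose with metformin, 10 fell and 13 did not pass the test (limma on log2(FPKM + 1), Benjamini-Hochberg adjusted p under 0.05). Of all genes tested, 74.6% were called, 31.3% higher and 43.3% lower, and the 3 libraries of a group lay wholly above or below those of the other for 32.4% and 44.2%. The members' share called (72.3%) was thus close to the background, and their split was 51.1% higher and 21.3% lower. Their median log2 fold change was 0.29, against -0.10 for all genes. Under every scaling, 22 kept a higher call and 9 a lower one. With a change of at least 1 on the log2(FPKM + 1) scale, 7 were higher and none lower, against 8.56% and 11.4% of all genes. That scale understates changes of low genes. Mean FPKM of ATP6V0D1, ATG7 and ATP6V1H fell 2.59-fold, 2.36-fold and 2.22-fold, and that of TFEB rose 2.18-fold, without reaching this cutoff.

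TFE3 was the main TFEB-family transcript, at 82.1% of the family's summed FPKM in untreated vector cells and 91.2% with metformin. TFE3 stood at 14.7, 14.6 and 14.9 FPKM in the untreated vector libraries and at 42.1, 43.1 and 45.6 FPKM with metformin. Every metformin library was far above every untreated one (log2 fold change 1.503, SE 0.04, adjusted p = 2.6e-10). TFEB, the best known regulator of lysosomal genes, went from 1.34, 1.37 and 1.31 to 2.65, 2.99 and 3.13 FPKM, again without overlap (log2 fold change 0.74, SE 0.07, adjusted p = 1.5e-06). MITF, the melanocyte member of the family, fell from 1.87, 1.94 and 1.79 to 1.19, 1.31 and 1.31 FPKM (log2 fold change -0.34, SE 0.05, adjusted p = 1.8e-04). Both rises and this fall held under every scaling.

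Among the enzymes, 7 of 12 rose (58.3%) and 2 fell (16.7%), against 31.3% and 43.3% of all genes. CTSB, the cysteine protease cathepsin B, stood at 14.1, 13.2 and 14.4 FPKM untreated and at 39.8, 43.4 and 41.8 with metformin (log2 fold change 1.52, SE 0.04, adjusted p = 3.6e-10). CTSL, cathepsin L, went from 22.1, 20.0 and 18.8 to 60.5, 66.4 and 49.4 FPKM (log2 fold change 1.48, SE 0.15, adjusted p = 4.6e-06). Neither gene's groups overlapped. GLA, the alpha-galactosidase that removes galactose from glycolipids, fell from 22.5, 24.1 and 21.4 to 14.0, 13.8 and 15.6 FPKM (log2 fold change -0.62, SE 0.06, adjusted p = 1.7e-06). CTSA, the protective protein of the lysosomal neuraminidase, fell from 9.54, 10.3 and 9.45 to 7.51, 7.37 and 7.47 FPKM (log2 fold change -0.35, SE 0.05, adjusted p = 3.8e-05), but its adjusted p was 0.068 with upper-quartile factors. CTSZ, another cathepsin, was not called (-0.06) and gave calls in opposite directions under different scalings.

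In the autophagy machinery 8 of 12 genes rose (66.7%) and 2 fell (16.7%), against 31.3% and 43.3% of all genes. GABARAPL1, an ATG8-family protein of the autophagosome membrane, had the highest rise of any member. It stood at 2.97, 1.12 and 1.17 FPKM untreated and at 12.5, 9.47 and 14.4 with metformin, with the untreated libraries themselves spread over several-fold (log2 fold change 2.30, SE 0.38, adjusted p = 2.4e-04). MAP1LC3B, the LC3 protein most used as an autophagosome marker, went from 2.98, 5.19 and 2.68 to 10.55, 10.3 and 10.7 FPKM (log2 fold change 1.36, SE 0.20, adjusted p = 8.1e-05). SQSTM1, in which 20.7% of the exon bases overlap MRNIP on the opposite strand, went from 50.6, 51.4 and 42.8 to 113, 106 and 97.5 FPKM (log2 fold change 1.11, SE 0.19, adjusted p = 2.5e-04). The metformin libraries were above the untreated ones in each of these 3 genes. WIPI1, a phosphoinositide-binding protein of the forming autophagosome, rose by 1.28 on the log2 scale. The genes that fell were ATG7, the E1-like enzyme that activates ATG8 proteins (-0.70, 18.1% of exon bases shared with VGLL4 on the opposite strand), and BECN1, a subunit of the VPS34 lipid kinase complex (-0.52). The call of ATG16L1 (adjusted p = 0.032) ended without untreated vector replicate 2 or 3 or metformin vector replicate 1, with an adjusted p of up to 0.104.

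Of the V-ATPase genes 4 of 15 rose (26.7%) and 3 fell (20%), against 31.3% and 43.3% of all genes. Fewer of them were called (46.7%) than of all genes (74.6%). ATP6V1F, a small V1 stalk subunit, stood at 42.4, 39.8 and 38.0 FPKM untreated and at 63.1, 65.0 and 64.6 with metformin (log2 fold change 0.67, SE 0.05, adjusted p = 3.2e-07). ATP6V0E1, a small V0 subunit, went from 26.6, 22.3 and 24.3 to 32.9, 32.3 and 32.5 FPKM (log2 fold change 0.41, SE 0.06, adjusted p = 6.9e-05). Both genes were higher in every metformin library. The 3 that fell were ATP6V0D1 (-0.76), which joins V0 to the central stalk, and the V1 subunits ATP6V1C1 (-0.77) and ATP6V1H (-0.65). Genes of both sectors were thus among those that rose and among those that fell.

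At the membrane 3 of 5 genes rose (60%) and 2 fell (40%), against 31.3% and 43.3% of all genes. CD63, a tetraspanin of late endosomes, went from 42.3, 41.9 and 42.3 to 70.5, 74.9 and 75.4 FPKM (log2 fold change 0.79, SE 0.05, adjusted p = 8.7e-08), and LAMP2, an abundant glycoprotein of the lysosomal membrane, from 26.6, 27.1 and 26.9 to 41.7, 43.7 and 43.9 FPKM (log2 fold change 0.66, SE 0.04, adjusted p = 1.4e-07). LAMP1, its close relative, fell from 12.8, 16.7 and 15.9 to 9.59, 8.95 and 9.80 FPKM (log2 fold change -0.62, SE 0.10, adjusted p = 1.8e-04). The groups of LAMP1 and LAMP2 did not overlap, and the RNAs of these related proteins moved in opposite directions. MCOLN1, the calcium channel mucolipin 1, fell by 0.45 on the log2 scale. NPC1, which exports cholesterol, rose (0.27) but had an adjusted p of 0.054 with totals without mitochondrial genes.

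In GPD1 cells 28 of the 47 genes rose with metformin, 11 fell and 8 did not pass the test. The background was 74.2% called, 26.1% higher and 48.0% lower, with groups that did not overlap for 27.5% and 49.6%. Members were called higher in 59.6% and lower in 23.4%, with a median log2 fold change of 0.36 against -0.20 for all genes. The split depended on the scaling: 34 higher and 6 lower with median-ratio factors, 36 and 3 with upper-quartile factors, and 27 and 11 with totals without mitochondrial genes. Under every scaling 27 were higher and 3 lower, the 3 being ATP6V0D1, ATP6V1C1 and BECN1. At a change of at least 1 on the log2(FPKM + 1) scale, 5 were higher and none lower, against 5.05% and 12.1% of all genes. Mean FPKM of ATP6V1C1 and BECN1 fell 2.21-fold and 2.04-fold without reaching this cutoff.

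In GPD1 libraries TFE3 went from 19.6, 20.0 and 19.2 FPKM to 45.2, 46.5 and 48.5 FPKM with metformin (log2 fold change 1.21, SE 0.04, adjusted p = 1.6e-09). TFEB went from 1.54, 1.32 and 1.60 to 1.94, 2.18 and 2.11 FPKM (log2 fold change 0.31, SE 0.07, adjusted p = 0.0014). Neither gene's groups overlapped, and both calls held under every scaling. MITF stood at 1.17, 1.16 and 1.23 and 1.03, 0.967 and 0.876 FPKM (log2 fold change -0.16, SE 0.05, adjusted p = 0.021). Its sign turned positive with median-ratio factors (0.01) and upper-quartile factors (0.09), and its call ended without replicate 3 of either GPD1 group (adjusted p of up to 0.0789).

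Of the enzymes 11 of 12 rose (91.7%), under every scaling, and 1 fell (8.33%), against 26.1% and 48.0% of all genes. CTSL went from 24.2, 31.8 and 24.0 to 72.9, 63.7 and 51.6 FPKM (log2 fold change 1.20, SE 0.15, adjusted p = 2.7e-05). CTSB went from 14.3, 14.6 and 14.7 to 32.4, 31.1 and 31.8 FPKM (log2 fold change 1.08, SE 0.04, adjusted p = 5.4e-09). PSAP, the most abundant member, went from 155 ± 0.642 to 299 ± 5.49 FPKM (log2 fold change 0.94, SE 0.04, adjusted p = 4.1e-09). GLA was the gene that fell, from 27.1, 25.7 and 25.6 to 17.2, 17.3 and 17.4 FPKM (log2 fold change -0.57, SE 0.06, adjusted p = 3.8e-06), with an adjusted p of 0.14 under upper-quartile factors. CTSD, cathepsin D, rose by 0.60, but its call ended without untreated GPD1 replicate 2 or metformin GPD1 replicate 1 (adjusted p of up to 0.0918). In CTSD 41.7% of the exon bases are shared with another annotated gene on the same strand, AC068580.4.

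The autophagy genes divided into 6 that rose (50%), 3 that fell (25%) and 3 not called, against 26.1% higher and 48.0% lower among all genes. MAP1LC3B went from 4.33, 2.51 and 4.47 to 8.57, 8.26 and 8.46 FPKM (log2 fold change 1.01, SE 0.20, adjusted p = 7.5e-04) and SQSTM1 from 55.1, 30.6 and 55.1 to 79.6, 73.4 and 78.7 FPKM (log2 fold change 0.75, SE 0.19, adjusted p = 0.0036). GABARAPL1 stood at 2.65, 0.966 and 2.59 FPKM untreated and at 4.75, 10.4 and 3.25 with metformin (log2 fold change 1.14, SE 0.38, adjusted p = 0.019). Untreated replicate 2 was the lowest of its group in all 3 genes, and the metformin libraries of GABARAPL1 were widely spread. Without that replicate the SQSTM1 change was 0.48, still called. The GABARAPL1 change was 0.74 without metformin replicate 2. The GABARAPL1 call ended without untreated GPD1 replicate 2 or metformin GPD1 replicate 2 (adjusted p of up to 0.0792). ULK1, the kinase that starts autophagy, went from 11.7, 11.3 and 11.4 to 9.76, 9.27 and 10.1 FPKM (log2 fold change -0.22, SE 0.05, adjusted p = 0.0033). This fall reversed to a called rise of 0.22 with upper-quartile factors.

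Of the V-ATPase genes 6 of 15 rose (40%) and 5 fell (33.3%), against a background of 26.1% and 48.0%. Those that rose have 789 (ATP6V1F) to 4884 (ATP6AP1) exon bases. Those that fell have 5090 (ATP6V1H) to 8212 (ATP6V0D1). In vector cells ATP6V0A1, with 10955, was among those that rose. In an alternative fit with a length trend removed, the fall of ATP6V1A reversed and fewer members were lower with metformin in GPD1 cells. The values are given in the section on processing. Beyond that fit, the part of length in this split was not tested. ATP6V1F went from 41.3, 40.7 and 43.8 to 70.9, 75.9 and 76.0 FPKM (log2 fold change 0.81, SE 0.05, adjusted p = 8.3e-08), and ATP6V0E1 from 23.8, 25.2 and 23.9 to 34.1, 36.4 and 35.0 FPKM (log2 fold change 0.52, SE 0.06, adjusted p = 1.1e-05). Both were higher in every metformin library, as in vector cells. ATP6V1A, the catalytic V1 subunit, stood at 10.98, 11.8 and 10.7 and 9.47, 10.1 and 10.1 FPKM (log2 fold change -0.16, SE 0.04, adjusted p = 0.0076), a fall that became a called rise with median-ratio (0.15) and upper-quartile (0.28) factors. ATP6V1E1 passed the test narrowly (log2 fold change 0.29, SE 0.12, adjusted p = 0.047), and leaving out any 1 of 8 libraries (all but untreated and metformin GPD1 replicate 2, untreated vector replicate 2 and metformin vector replicate 3) ended its call (adjusted p of up to 0.167), as did totals without mitochondrial genes (adjusted p = 0.13).

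At the membrane NPC1 went from 6.49, 7.02 and 7.16 to 12.5, 13.0 and 12.2 FPKM (log2 fold change 0.78, SE 0.08, adjusted p = 4.5e-06) and CD63 from 45.9, 42.5 and 48.5 to 71.3, 74.7 and 72.7 FPKM (log2 fold change 0.67, SE 0.05, adjusted p = 3.8e-07), with no overlap in either gene. LAMP2 also rose (0.60). LAMP1 was not called (0.13, adjusted p = 0.25), and MCOLN1 fell by 0.39, with an adjusted p of 0.18 under upper-quartile factors.

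The metformin comparisons in vector and GPD1 cells share no library. Of the members 21 rose in both and 8 fell in both. Of all genes tested, 19.7% rose in both and 35.1% fell in both. ULK1 was called higher in vector cells and lower in GPD1 cells, and CTSA lower and higher. Neither opposition held under every scaling: the ULK1 fall in GPD1 cells reversed and the CTSA fall in vector cells was not called with upper-quartile factors.

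**Figure D2:**
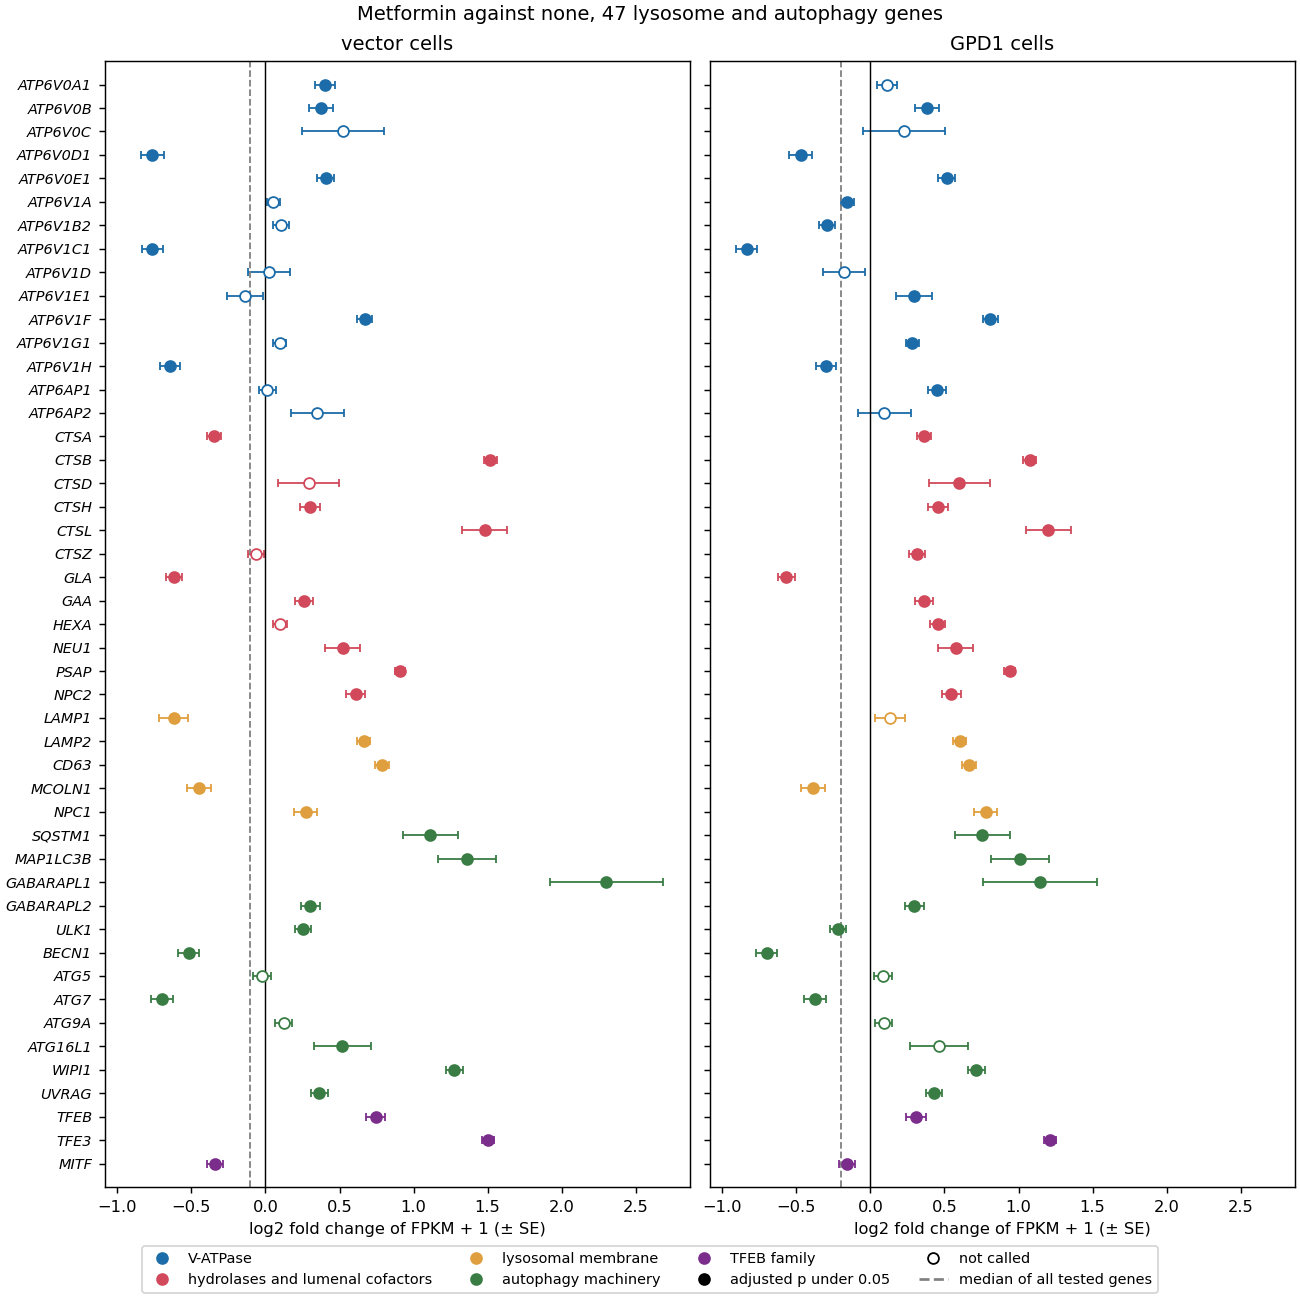
Log2 fold change of FPKM + 1 with metformin (horizontal axis) for each of the 47 genes by role (vertical axis), in vector and in GPD1 cells, with bars of 1 SE and filled points for adjusted p under 0.05. GABARAPL1, CTSB, TFE3 and CTSL lie farthest to the right in both panels. Farthest to the left are ATP6V1C1 and ATP6V0D1 in vector cells, and ATP6V1C1 and BECN1 in GPD1 cells.

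Without metformin, 7 of the 47 genes were higher in GPD1 cells, 7 were lower and 33 did not pass the test. The background was 21.3% called, 9.99% higher and 11.3% lower, with groups apart for 18.8% and 22.7%. The median log2 fold change was 0.05, against -0.01 for all genes, and no member differed by 1 or more, against 0.524% higher and 0.452% lower among all genes. With totals without mitochondrial genes 6 were higher and 9 lower. Without untreated vector replicate 2, or untreated GPD1 replicate 1 or 3, 4 were higher.

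TFE3 was higher in GPD1 cells, at 19.6, 20.0 and 19.2 against 14.7, 14.6 and 14.9 FPKM (log2 fold change 0.39, SE 0.04, adjusted p = 7.4e-05). MITF was lower, at 1.17, 1.16 and 1.23 against 1.87, 1.94 and 1.79 FPKM (log2 fold change -0.39, SE 0.05, adjusted p = 5.0e-04). TFEB was not called (0.09, adjusted p = 0.39). The libraries of TFE3 and MITF did not overlap between the populations.

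PSAP was lower in GPD1 cells, at 156, 154 and 156 against 205, 202 and 199.6 FPKM (log2 fold change -0.38, SE 0.04, adjusted p = 3.9e-05). CTSA was also lower, at 7.499, 7.001 and 7.08 against 9.54, 10.3 and 9.45 FPKM (log2 fold change -0.39, SE 0.05, adjusted p = 1.5e-04), as was HEXA, a subunit of beta-hexosaminidase (-0.26). GAA, the acid alpha-glucosidase that degrades glycogen, was higher, at 30.4, 29.9 and 29.9 against 26.6, 23.1 and 25.96 FPKM (log2 fold change 0.25, SE 0.06, adjusted p = 0.014). NPC2, which hands cholesterol to NPC1 inside the lysosome, was higher by 0.20 (adjusted p = 0.046), but leaving out any 1 of 9 libraries (all but untreated vector replicate 3 and replicate 1 of both metformin groups) ended the call (adjusted p of up to 0.152), as did totals without mitochondrial genes (adjusted p = 0.06). GLA was higher by 0.20, and its call ended without untreated vector replicate 1 or 3 or any 1 of the 3 untreated GPD1 libraries (adjusted p of up to 0.0988).

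NPC1 itself was lower, at 6.49, 7.02 and 7.16 against 11.4, 10.9 and 11.9 FPKM (log2 fold change -0.65, SE 0.08, adjusted p = 1.8e-04), and had the most negative log2 fold change of the members. LAMP2 was lower, at 22.8, 23.9 and 23.6 against 26.6, 27.1 and 26.9 FPKM (log2 fold change -0.19, SE 0.04, adjusted p = 0.01). Both were separated between the populations. WIPI1 was higher, at 3.79, 4.18 and 4.01 against 2.28, 2.08 and 2.35 FPKM (log2 fold change 0.63, SE 0.06, adjusted p = 2.5e-05). In WIPI1 24.3% of the exon bases overlap ARSG on the opposite strand, and the sources used here do not say that reads were counted by strand.

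ATG9A, the lipid scramblase of autophagosome precursors, was higher, at 5.80, 5.65 and 5.87 against 5.20, 4.88 and 4.69 FPKM (log2 fold change 0.19, SE 0.06, adjusted p = 0.031). Its call ended without untreated vector replicate 2 or 3 or any 1 untreated GPD1 library (adjusted p of up to 0.104). ATG5, which joins ATG12 in the conjugate that attaches ATG8 proteins to lipid, was higher by 0.25, and its call ended without untreated vector replicate 2 (adjusted p = 0.0546). Of the V-ATPase genes ATP6V1B2, a V1 subunit, was lower (-0.33), and the other 14 did not pass the test. The share called was thus 6.67%, against 21.3% of all genes.

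In metformin, 14 of the 47 genes were higher in GPD1 cells than in vector cells, 12 were lower and 21 did not pass the test. The background was 60.0% called, 25.0% higher and 35.0% lower, with groups apart for 27.7% and 37.1%. The median log2 fold change was 0.07, against -0.05 for all genes. The split moved to 21 higher and 10 lower with median-ratio factors and to 25 and 5 with upper-quartile factors. Under every scaling 14 were higher and 5 lower. No member differed by 1 or more, against 1.52% higher and 6.01% lower among all genes. This comparison shares libraries with the metformin comparisons above, and values are given side by side only.

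LAMP1 had the largest log2 fold change of the called higher members, at 17.7, 19.2 and 18.4 against 9.59, 8.95 and 9.80 FPKM (log2 fold change 0.90, SE 0.10, adjusted p = 1.9e-05). LAMP2 was lower, at 36.5, 37.9 and 34.0 against 41.7, 43.7 and 43.9 FPKM (log2 fold change -0.25, SE 0.04, adjusted p = 5.3e-04), but only with deposited totals, median ratios or totals without mitochondrial genes. With upper-quartile factors its difference was -0.01 (adjusted p = 0.85).

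Of the enzymes 6 of 12 were higher and 2 lower, against 25.0% and 35.0% of all genes. CTSZ stood at 58.9, 63.7 and 66.3 against 44.8, 47.9 and 46.0 FPKM (log2 fold change 0.44, SE 0.05, adjusted p = 4.3e-05), and GAA at 38.4, 40.5 and 37.9 against 28.2, 31.3 and 31.8 FPKM (log2 fold change 0.35, SE 0.06, adjusted p = 4.9e-04). CTSB was lower, at 32.4, 31.1 and 31.8 against 39.8, 43.4 and 41.8 FPKM (log2 fold change -0.38, SE 0.04, adjusted p = 2.6e-05). PSAP was lower, at 303, 301 and 293 against 364, 379.9 and 398 FPKM (log2 fold change -0.35, SE 0.04, adjusted p = 1.3e-05), with an adjusted p of 0.085 under upper-quartile factors. CTSD was higher by 0.60, and its call ended without metformin vector replicate 1 or 2 or metformin GPD1 replicate 1 (adjusted p of up to 0.111).

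ATP6AP1, an accessory V-ATPase subunit, was higher, at 14.2, 14.2 and 13.4 against 9.92, 8.98 and 10.46 FPKM (log2 fold change 0.47, SE 0.06, adjusted p = 3.9e-05). ATP6V1E1 stood at 14.96, 11.4 and 15.04 against 10.6, 10.2 and 9.02 FPKM (log2 fold change 0.43, SE 0.12, adjusted p = 0.01). ATP6V1A stood at 9.47, 10.1 and 10.1 against 11.7, 11.9 and 11.9 FPKM (log2 fold change -0.24, SE 0.04, adjusted p = 8.0e-04), and with upper-quartile factors its difference was -0.01. In all, 4 of the 15 V-ATPase genes were higher and 4 lower, against 25.0% and 35.0% of all genes. Under every scaling 4 were higher and 2 lower. The 2 lower genes were ATP6V1B2 (-0.73, adjusted p = 7.1e-07) and ATP6V0A1 (-0.49, adjusted p = 1.1e-04). ATP6V1C1 lost its lower call (-0.24) without metformin vector replicate 2 (adjusted p = 0.0546), with median-ratio factors (-0.18, adjusted p = 0.072) and with upper-quartile factors (-0.08, adjusted p = 0.39).

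ULK1 was lower, at 9.76, 9.27 and 10.1 against 14.3, 13.0 and 12.7 FPKM (log2 fold change -0.42, SE 0.05, adjusted p = 5.4e-05), and ATG9A higher, at 6.02, 5.96 and 6.64 against 5.79, 5.15 and 5.42 FPKM (log2 fold change 0.16, SE 0.06, adjusted p = 0.028). The ATG9A call ended without metformin vector replicate 2 or 3 or metformin GPD1 replicate 3 (adjusted p of up to 0.109). ATG7 was higher by 0.20 and GABARAPL1 lower (-0.99), and for each leaving out any 1 of 8 libraries ended the call (adjusted p of up to 0.151 and 0.168). The ATG7 call held without untreated vector replicate 2 or 3, metformin vector replicate 1 or metformin GPD1 replicate 2. That of GABARAPL1 held without untreated vector replicate 1, metformin vector replicate 2 or replicate 2 of either GPD1 group, and was also lost with median-ratio (adjusted p = 0.057) and upper-quartile (0.09) factors. In the TFEB family TFEB was lower (log2 fold change -0.35, SE 0.07, adjusted p = 8.5e-04) and MITF was lower (-0.21, adjusted p = 0.19 with upper-quartile factors), while TFE3 was not called (0.10, adjusted p = 0.058).

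**Figure D3:**
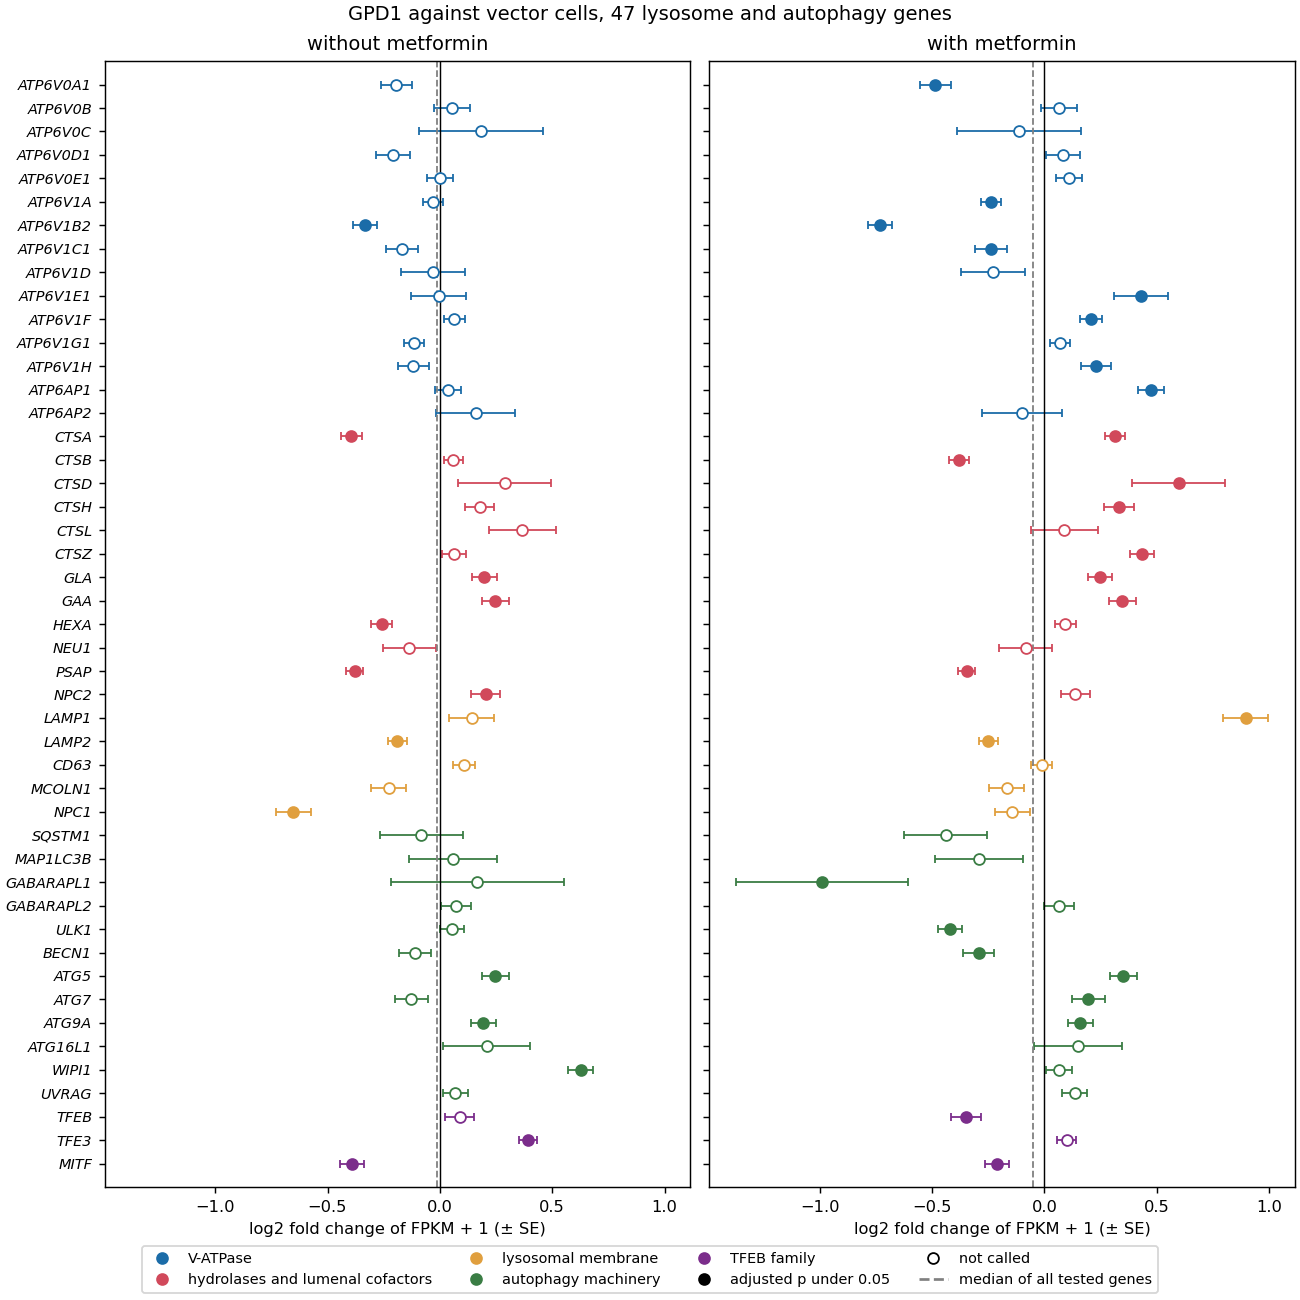
Log2 fold change of FPKM + 1 between GPD1 and vector cells (horizontal axis) for each of the 47 genes by role (vertical axis), without and with metformin, with bars of 1 SE and filled points for adjusted p under 0.05. Fewer points are filled without metformin (14) than with it (26), and LAMP1 with metformin is farthest to the right among the called genes.

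The interaction asks whether the log2 change with metformin differed between GPD1 and vector cells. It was called positive (higher in GPD1 cells) for 10 members, negative for 8, and not called for 29. The background was 45.9% called, 19.1% positive and 26.8% negative. The members' shares were 21.3% and 17.0%, with a median of 0.01 against -0.04. With upper-quartile factors 20 were positive and 5 negative, and under every scaling 10 and 5. At a difference of at least 1 no member was called, against 1.17% positive and 5.68% negative among all genes.

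LAMP1 showed the largest called difference (0.75, SE 0.14, adjusted p = 0.0014). It fell in vector cells, and in GPD1 cells its libraries went from 14.5, 17.8 and 18.1 to 17.7, 19.2 and 18.4 FPKM, with overlap. CTSA followed (0.71, adjusted p = 1.2e-05): it fell in vector cells, and rose from 7.499, 7.001 and 7.08 to 9.13, 9.69 and 9.73 FPKM in GPD1 cells. NPC1 rose in both and by more in GPD1 cells (0.51, adjusted p = 0.0033). GPD1 cells began from the lower NPC1 level, and in metformin the populations were at 14.0 ± 1.76 and 12.5 ± 0.410 FPKM.

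WIPI1 had the most negative called difference (-0.56, adjusted p = 2.4e-04). It stood at 7.29, 6.79 and 6.44 FPKM in metformin vector libraries and at 7.29, 6.86 and 7.43 in metformin GPD1 libraries, so the unequal rises ended at overlapping levels. ULK1 differed by -0.47 (adjusted p = 5.0e-04), CTSB by -0.44 and TFEB by -0.44, and CTSB and TFEB rose less in GPD1 cells. ULK1 rose in vector cells, and its change in GPD1 cells was negative with the deposited totals and with totals without mitochondrial genes but positive with median-ratio (0.09) and upper-quartile (0.22) factors. The difference of TFE3 (-0.29, adjusted p = 0.002) became -0.08 (adjusted p = 0.42) with upper-quartile factors.

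GABARAPL1 had the most negative value of all members (-1.16), and was not called (adjusted p = 0.11). The 10 positive calls were ATP6V0D1, ATP6V1G1, ATP6V1H, ATP6AP1, CTSA, CTSZ, HEXA, LAMP1, NPC1 and ATG7, and each was also called under every scaling. Those of ATP6V0D1, ATP6V1G1 and ATG7, and the negative call of ATP6V0A1, ended when 1 library was left out, for 9, 8, 5 and 7 of the 12 libraries, with adjusted p of up to 0.0986, 0.0797, 0.0613 and 0.0708. ATP6V0D1 held its call without untreated GPD1 replicate 1 or 2 or metformin GPD1 replicate 3. ATP6V1G1 held it without untreated vector replicate 3 or replicate 1 of the other 3 groups. ATG7 lost it without untreated vector replicate 3, metformin vector replicate 2, untreated GPD1 replicate 2 or metformin GPD1 replicate 1 or 3. ATP6V0A1 lost it without replicate 1 of either vector group, untreated vector replicate 2, untreated GPD1 replicate 1 or 3, or metformin GPD1 replicate 2 or 3, and with upper-quartile factors (adjusted p = 0.16). The 6 genes with a TCACGTGA promoter all had positive differences, of which 4 were called (ATP6V0D1, ATP6V1G1, CTSA and LAMP1). Of all 8337 tested genes with a promoter in the table, 3933 had a positive difference and 20.8% were called positive. Among the 195 tested genes that held the palindrome and are not of the 47, 81 were positive and 19.0% were called positive.

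**Figure D4:**
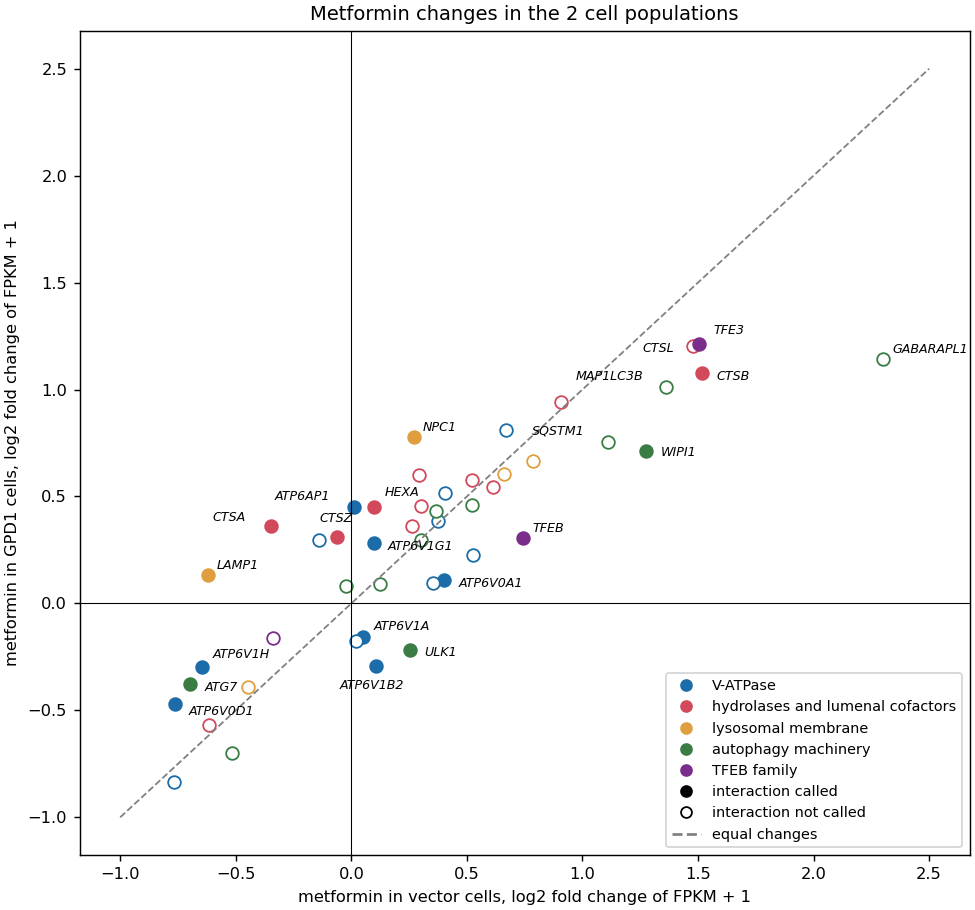
Log2 fold change with metformin in vector cells (horizontal axis) against that in GPD1 cells (vertical axis) for the 47 genes, coloured by role, filled where the interaction was called, with a dashed line of equal changes. LAMP1, CTSA and NPC1 lie above the line and WIPI1, CTSB and TFEB below it.

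Of 129 further genes of lysosomes and autophagy in 8 lists, 116 were tested. With metformin 43 of these rose and 45 fell in vector cells, and 38 rose and 47 fell in GPD1 cells. These were 37.1% and 38.8% (background 31.3% and 43.3%), and 32.8% and 40.5% (background 26.1% and 48.0%), near the background. GPD1 cells had 11 higher and 20 lower without metformin (13 lower without untreated vector replicate 3 or untreated GPD1 replicate 3), and 39 higher and 41 lower with it. These were 9.48% and 17.2% (background 9.99% and 11.3%), and 33.6% and 35.3% (background 25.0% and 35.0%). The balance turned with the scaling. With median-ratio factors 60 rose and 39 fell in vector cells and 63 rose and 29 fell in GPD1 cells, and with upper-quartile factors 60 and 38, and 70 and 26. GPD1 cells in metformin then had 61 higher and 29 lower with upper-quartile factors.

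The 31 further hydrolases tested included 8 that rose and 12 that fell with metformin in vector cells, and 17 that rose and 7 that fell in GPD1 cells. These were 25.8% and 38.7% (background 31.3% and 43.3%), and 54.8% and 22.6% (background 26.1% and 48.0%). With upper-quartile factors 15 of the hydrolases rose and 10 fell in vector cells. Their interaction was called positive for 13 and negative for 2, that is 41.9% and 6.45% of them against 19.1% and 26.8% of all genes, with a median of 0.37 against -0.04. FUCA1, the lysosomal fucosidase, went from 9.67 ± 0.833 to 3.03 ± 0.0232 FPKM in vector cells and from 12.3 ± 0.195 to 9.69 ± 0.794 in GPD1 cells (interaction 1.08, adjusted p = 7.1e-06). ARSB, which removes sulfate from glycosaminoglycans, went from 3.25 ± 0.237 to 0.870 ± 0.0629 and from 2.78 ± 0.0225 to 2.06 ± 0.0349 FPKM (interaction 0.88). In GPD1 cells neither fall was called with median-ratio or upper-quartile factors, while both interactions were called under every scaling. GM2A, the activator of ganglioside breakdown, was one of the 2 negative genes (-0.34, adjusted p = 0.22 with upper-quartile factors). Without metformin CTSF and CTSS were among the 4 hydrolases higher in GPD1 cells (1.19 and 0.58). MANBA and MAN2B1, which remove mannose, rose in both populations.

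Among the 10 further genes of autophagy initiation tested, 5 rose and 4 fell in vector cells and 2 rose and 6 fell in GPD1 cells (4 and 4 with upper-quartile factors). With the deposited totals these were 50% and 40% (background 31.3% and 43.3%), and 20% and 60% (background 26.1% and 48.0%). The interaction was called positive for 1 and negative for 7, against 19.1% and 26.8% of all genes. ATG14, the subunit that brings the VPS34 complex to autophagosomes, stood at 7.07 ± 0.274 and 9.36 ± 0.435 FPKM in vector cells and 6.13 ± 0.250 and 4.48 ± 0.313 in GPD1 cells (interaction -0.74, adjusted p = 2.9e-05). RUBCN, an inhibitor of that complex, rose in vector cells (0.73), while in GPD1 cells its change was -0.19. With upper-quartile factors the changes of ATG14 and RUBCN in GPD1 cells were 0.02 and 0.09, neither called, and both interactions were called under every scaling. ATG101, a partner of ULK1, rose in both (1.13 and 0.68).

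Of the 13 genes of mTORC1 at the lysosome that were tested, 8 rose and 4 fell with metformin in vector cells. In GPD1 cells 4 rose and 5 fell (8 and 4 with upper-quartile factors). With the deposited totals these were 61.5% and 30.8% (background 31.3% and 43.3%), and 30.8% and 38.5% (background 26.1% and 48.0%). FLCN, the GTPase-activating protein for RRAGC and RRAGD, went from 2.71 ± 0.0884 to 9.76 ± 0.907 FPKM in vector cells and from 2.23 ± 0.0798 to 2.79 ± 0.227 in GPD1 cells. RRAGC, a GTPase that recruits mTORC1, went from 2.87 ± 0.206 to 8.69 ± 0.200 FPKM in vector cells and stood at 2.67 ± 0.0915 and 2.66 ± 0.270 in GPD1 cells (interaction -1.33, adjusted p = 1.4e-06). With upper-quartile factors RRAGC also rose in GPD1 cells, by 0.35. RRAGA also differed (-0.92). RPTOR, the substrate-binding subunit of mTORC1, fell in both populations (-1.46 and -1.36), as did MTOR, its kinase (-0.75 and -0.57).

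Of 15 tested genes that deliver proteins to lysosomes, 2 rose and 9 fell in vector cells and none rose and 9 fell in GPD1 cells. These were 13.3% and 60% (background 31.3% and 43.3%), and 0% and 60% (background 26.1% and 48.0%). With upper-quartile factors the counts were 5 and 7, and 7 and 6. SORT1, a sorting receptor, fell from 3.52 ± 0.0609 to 1.12 ± 0.136 FPKM in vector cells and stood at 2.92 ± 0.0425 and 3.04 ± 0.264 in GPD1 cells (interaction 1.14). GNPTAB, which makes the mannose 6-phosphate tag, fell in vector cells (-0.98), and in GPD1 cells (-0.36) it was not called with upper-quartile factors (0.03). VPS39 of the HOPS tethering complex also fell in both (-0.80 and -0.86).

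For the lists that follow, the background with metformin was 31.3% higher and 43.3% lower in vector cells, and 26.1% and 48.0% in GPD1 cells. Of 14 further genes of autophagosome growth and conjugation, 6 rose (42.9%) and 5 fell (35.7%) in vector cells. In GPD1 cells 4 rose (28.6%) and 7 fell (50%), or 8 and 3 with upper-quartile factors. MAP1LC3A, another LC3 protein, rose in both (1.29 and 1.04), and ATG2B, a lipid-transfer protein, fell in both (-1.24 and -1.07). Of 15 further receptors and fusion genes, 8 rose (53.3%) and 3 fell (20%) in vector cells. In GPD1 cells 7 rose (46.7%) and 3 fell (20%). The receptors OPTN (1.02 and 1.063) and TAX1BP1 (0.62 and 0.51) were among those that rose. With the deposited totals FUNDC1 and BNIP3 were among those that fell in vector cells, and their interactions were called positive. SNAP29 and EPG5 were among those that fell in GPD1 cells. Of 11 further membrane proteins, 3 rose (27.3%) and 6 fell (54.5%) in vector cells. In GPD1 cells 2 rose (18.2%) and 7 fell (63.6%), or 4 and 4 with upper-quartile factors. LAPTM4A rose in both (0.57 and 0.76), and the cystine exporter CTNS fell in both (-0.88 and -0.45). Of 7 further V-ATPase subunits, 3 rose (42.9%) and 2 fell (28.6%) in vector cells. In GPD1 cells 2 rose (28.6%) and 3 fell (42.9%), or 4 and 2 with upper-quartile factors. TCIRG1, an alternative V0 subunit, stood at 13.8 ± 1.25, 28.0 ± 1.32, 20.8 ± 1.10 and 23.9 ± 1.31 FPKM in untreated vector, metformin vector, untreated GPD1 and metformin GPD1 cells.

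**Figure D5:**
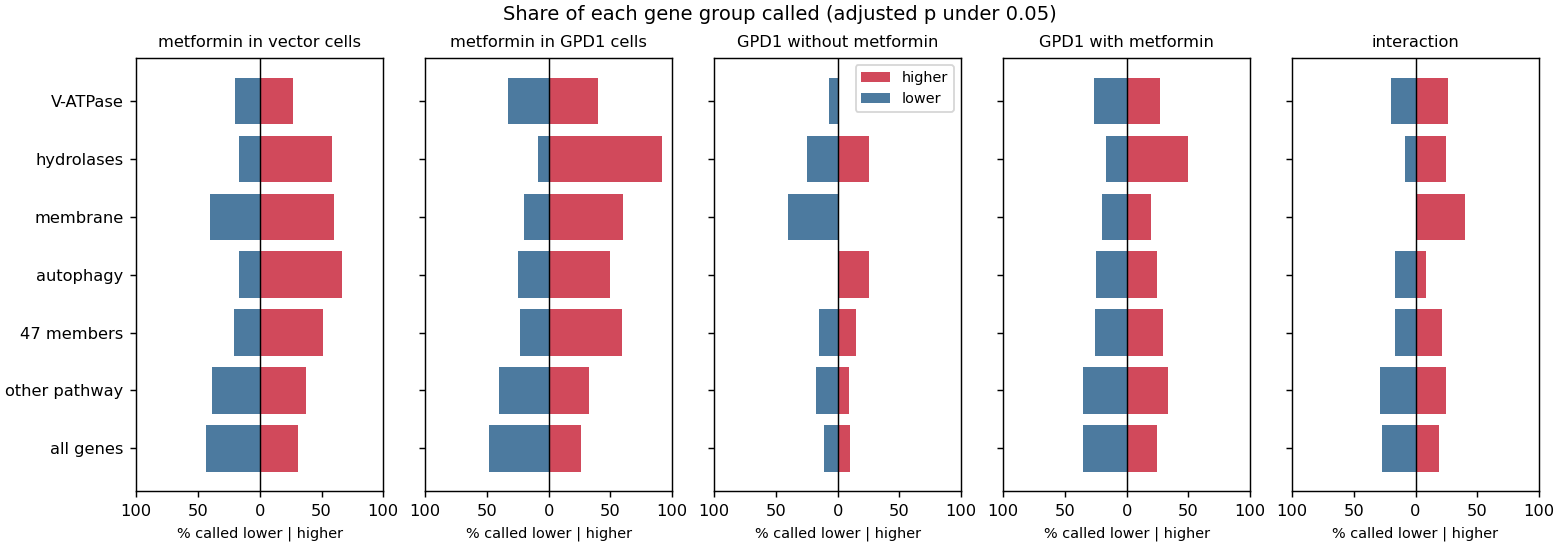
Percent of genes called higher (to the right of 0) or lower (to the left, horizontal axis) in each comparison (panels), for members by role, all 47 members, the further pathway genes and all genes tested (vertical axis). The 12 member hydrolases and lumenal cofactors reach 91.7% higher with metformin in GPD1 cells, where all genes reach 26.1%. The 31 further hydrolases tested, which are not drawn apart, were 54.8% higher and 22.6% lower there.

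Macrophages and other leukocytes are rich in lysosomes, and their markers were read beside these results. PTPRC was at most 0.030 FPKM in every library, and 2 of the 5 markers were below 0.1 FPKM throughout. The summed level of the 5 was 2.94 to 3.96 FPKM in untreated vector cells, 7.78 to 9.54 with metformin, 9.94 to 14.3 in GPD1 cells grown without metformin and 14.3 to 16.9 in metformin-treated ones. CD68, itself a lysosomal glycoprotein, and CD14 carried most of it. CD68 stood at 2.69, 1.97 and 2.14, at 8.22, 9.11 and 7.34, at 2.59, 2.77 and 3.09 and at 7.003, 6.93 and 4.88 FPKM in these groups. CD14 stood at 0.784, 0.755 and 0.273, at 0.111, 0.115 and 0.161, at 10.7, 9.28 and 5.95 and at 8.74, 8.002 and 8.33 FPKM. The part of these markers in the results was not tested.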

How the data were processed

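Polyadenylated RNA of 24 samples is described, and the 12 samples of 786-O were not analysed here. CASAVA 1.8, HISAT2 2.1.0, edgeR and GRCh38 are named, per the submitters' processing notes; the sources used here give neither the gene annotation nor the program behind the values. The deposited values, computed by the authors, were read as FPKM: they are not whole numbers, and low values times exon length (GENCODE 29) were whole multiples of 1 step within 0.02 for 64.6% to 69.4% of genes, up to 10 steps. RPKM cannot be told apart from this. No count test was used. Genes whose mean reached 1 FPKM were tested on log2(FPKM + 1) in limma 3.58.1 under R 4.3.3, with trended variances and 4 group means, and adjusted over all 12607 genes at 0.05. Fold changes are on the log2(FPKM + 1) scale, which understates changes of low genes. The plan's protein sequences were not used here.

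The 47 members, the 8 pathway lists and the marker lists were chosen with earlier results of these data known. Values in every library were given for TFEB, TFE3, MITF and SQSTM1, and for up to 2 members per role, direction and comparison with the largest change among called genes whose mean reached 5 FPKM and whose groups did not overlap, and for the 5 largest called interactions; of each pathway list, for up to 2 called genes per direction and comparison with the smallest p. Other genes with values (among them PSAP with metformin, CTSZ and WIPI1 with metformin, and GABARAPL1 in the interaction) were chosen after their values were seen. Alternatives were median-ratio and upper-quartile factors, totals without mitochondrial genes (12 libraries rescaled by read share), no filter, a pseudocount of 0.1, only the groups compared, a replicate block, a length trend removed (natural spline, 5 degrees of freedom), a minimum log2 change of 1 in either direction, and leaving out each library. The count of calls held under every scaling was added after seeing the data. The test was tried on simulated data. Libraries of a group correlated at 0.983 to 0.988 and shared at most 0.214% of their values exactly.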

Additional observations from a re-analysis of the deposited data

Results flagged for a closer look

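The metformin change differed between GPD1 and vector cells for 18 of the 47 genes, by the interaction term in limma on log2(FPKM + 1). This is a smaller share than the 45.9% of all genes tested. The value given is the change in GPD1 cells minus that in vector cells. It was positive for LAMP1 (0.75), CTSA (0.71), NPC1 (0.51), ATP6AP1 (0.44), CTSZ (0.37), HEXA (0.35), ATP6V1H (0.35), ATG7 (0.32), ATP6V0D1 (0.29) and ATP6V1G1 (0.19). It was negative for WIPI1 (-0.56), ULK1 (-0.47), CTSB (-0.44), TFEB (-0.44), ATP6V1B2 (-0.40), TFE3 (-0.29), ATP6V0A1 (-0.29) and ATP6V1A (-0.21).

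The difference of ATP6V0A1 became -0.14, that of ATP6V1A -0.01 and that of TFE3 -0.08 with upper-quartile factors, none of them called. Those of ATP6V0A1, ATP6V0D1, ATP6V1G1 and ATG7 lost their call when single libraries were left out.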

How the results depend on the processing

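Of 66 named results, 48 kept their direction and side of the threshold under every alternative run. In GPD1 cells with metformin, the log2 fold change of ATP6V1A reversed to 0.15, 0.28 and 0.11 with median-ratio factors, upper-quartile factors and a length trend removed. That of ULK1 reversed to 0.0867, 0.22 and 0.13, and that of MITF to 0.0134, 0.0890 and 0.18; the cause was not tested. Members lower with metformin in GPD1 cells fell from 11 to 6, 3 and 3 under these settings and to 3 under every scaling. Pathway genes there were 63, 70 and 60 higher and 29, 26 and 29 lower. With upper-quartile factors GPD1 cells in metformin had 25 members higher, 5 lower and 61 pathway genes higher, and the interaction was positive for 20 members and negative for 5, with 21 pathway genes negative. Members lower in GPD1 cells with metformin were 6 with the length trend removed and 5 under every scaling, and negative interactions 5 under every scaling. A minimum change of 1 in either direction was also set on the log2(FPKM + 1) scale, which understates changes of low genes. Members higher and lower were then 7 and 0 with metformin in vector cells and 5 and 0 in GPD1 cells. They were 0 and 0 in the other 3 comparisons.

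Leaving out 1 library gave 23 to 26 members higher with metformin in vector cells and 10 lower, 26 to 29 and 10 to 11 in GPD1 cells, 4 to 7 and 7 to 8 for GPD1 without metformin, 11 to 15 and 11 to 13 with it, and 7 to 10 and 7 to 10 for the interaction. Pathway genes were 40 to 44 higher and 43 to 45 lower, 33 to 40 and 45 to 48, 8 to 12 and 13 to 21, 31 to 40 and 37 to 42, and 27 to 30 and 30 to 34, in the same order. The 4 higher members were left without untreated vector replicate 2 or untreated GPD1 replicate 1 or 3, and the 13 lower pathway genes without untreated vector replicate 3 or untreated GPD1 replicate 3.

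Same-numbered libraries did not deviate together (correlations of -0.0651 to 0.0561 over 18 pairs, against -0.0987 to 0.0717 over 36 pairs of different numbers), so the replicate block is only an alternative. With the block 24 members were higher and 10 lower with metformin in vector cells, 28 and 11 in GPD1 cells, 6 and 7 for GPD1 without metformin, 14 and 11 with it, and 9 and 8 for the interaction. At 13.3 to 18.0 M reads, genes near 1 FPKM rest on few reads per kilobase, and 3 libraries a group limit what small differences can be called.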

Other observations

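Beyond the 47 genes, 195 tested genes that are no members held TCACGTGA in a RefSeq promoter, a set chosen after the members' values were seen. Their interaction was called positive for 19.0% and negative for 31.8%, against 20.8% and 28.5% of the 8337 tested genes with any promoter in the table. With metformin 30.8% of them rose and 47.2% fell in vector cells, and 25.1% rose and 56.9% fell in GPD1 cells. The corresponding shares of all 8337 genes were 29.3% and 47.3%, and 24.5% and 52.1%. No test was made of these shares.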
